A study of Drosophila melanogaster with 56 samples.

Results

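The genes described here are 5 fat body genes of Drosophila melanogaster chosen by name as a group that is lower in fasted flies: fit, to, Lsp2, phu and fat-spondin. Levels over fasting on these arrays were known when the group was chosen, so their differences between times are given as descriptions, with no test. Each of fit (CG17820), Lsp2 (CG6806), phu (CG8147) and fat-spondin (CG6953) was read by 1 probe set that carried no other gene, 4 probe sets in all of the 18952 on the array. The remaining gene, `to` (takeout, CG11853), was not analysed here. RNA of 56 samples was hybridised, each to its own array; the flies came in 6 pools, and samples were drawn from a pool after 0, 24 or 48 h without food. Each pool was divided into antennae, palps combined with the proboscis (palp hereafter), heads whose chemosensory organs had been removed, and bodies without heads. The groups at 0, 24 and 48 h held 4, 5 and 5 arrays in antenna and 5, 5 and 4 arrays in each of palp, head and body. The labels call the 0 h samples baseline and the later ones fasting, and give no strain, sex or age. There were no fed controls beyond 0 h, and fasting therefore cannot be told apart from elapsed time.

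The fat body is the insect counterpart of liver and adipose tissue. It lines the body wall and surrounds the brain, stores fat, glycogen and protein, and secretes most proteins of the hemolymph together with hormones that report the state of nutrition to the brain. In flies, fit encodes a secreted peptide that acts as a satiety signal after protein feeding, Lsp2 a hexamerin that stores amino acids, phu an alkaline phosphatase (Alp3), and fat-spondin a secreted protein of the spondin family. The product of `to` is a carrier-like secreted protein of the takeout family that is known for its link to feeding and the circadian clock. The dissected parts are mixtures of cell types, and how much fat body each held was not measured. The level in a part reflects both the number of cells that express a gene and the RNA in each. These cannot be told apart in bulk samples.

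Values are log2 signals between 2.08 and 15.4, and every array had a median of 4.15. A signal below 4 is treated as dim. Levels are compared within a probe set and never between genes. On 5 arrays transcripts of gut or of accessory gland, or a large residual spread, stood out: 0 h replicate 2 of antenna, palp and head, 24 h replicate 1 of antenna and 24 h replicate 2 of palp. They are called the 5 set-aside arrays below. Gut transcripts were not confined to these arrays. On the 24 h head arrays, none of them set aside, the mean log2 signal of 7 gut digestive enzymes was 8.23 to 10.41. Leaving out the 5 set-aside arrays therefore does not remove gut transcripts from head. The palp, head and body arrays of pool 4 at 48 h (replicate 1) also stood apart in yolk protein transcripts; its antennal array did not, with Yp1 at 6.70, against 5.76 to 8.92 on the other antennal arrays at 48 h. Yp1, a yolk protein gene, had a log2 signal of 13.26 there in body, 12.69 in head and 11.44 in palp, against 2.08 to 2.10, 4.27 to 5.67 and 4.53 to 4.87 on the other 48 h arrays of these parts. All 14 yolk and eggshell genes were below 4 on every body array at 0 and 24 h, and all 12 accessory gland genes reached 4 on every body array. Of 12 listed fat body storage and lipid genes, 10 reached 4 on every 0 h array of each part, and Fbp1 and Fbp2 were below 4 on all of them. Over the whole series 50.4% of probe set values reached 4, so the count does not measure the fat body content of a part.

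**Figure D1:**
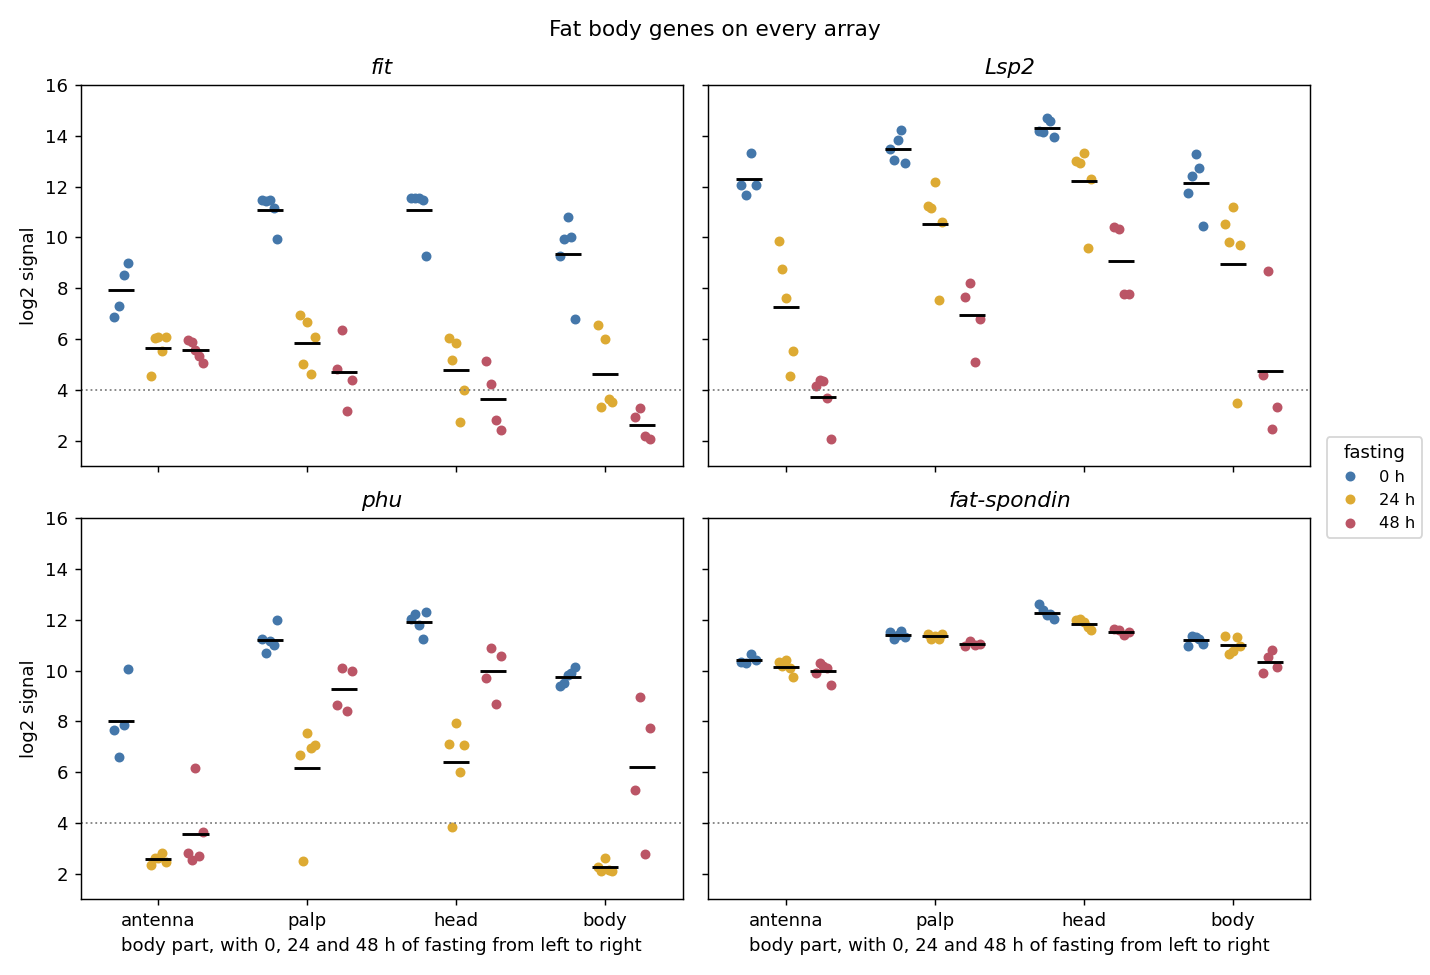
Log2 signal (vertical axis) of the 4 genes on each array, with 0, 24 and 48 h from left to right within each body part; points are arrays, black bars are group means, and the dotted line is the log2 signal of 4. The points of fit stand high at 0 h alone, those of Lsp2 step down at each time, those of phu are lowest at 24 h, and those of fat-spondin move little.

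The transcript of the satiety peptide fit was lower on every fasted array than on any 0 h array of the same part, and most of the difference was there after 1 day. In antenna the log2 signals of fit were 6.87, 7.28, 8.51 and 8.99 at 0 h, then 4.55, 6.05, 6.06, 5.53 and 6.06 at 24 h; the 48 h arrays read 5.96, 5.89, 5.56, 5.33 and 5.06. In palp they were 11.47, 11.45, 11.48, 11.16 and 9.92 at 0 h, then 6.94, 5.01, 6.66, 4.61 and 6.06 at 24 h; the 48 h arrays read 4.83, 6.37, 3.15 and 4.39. In both parts every fasted array lay below every 0 h array, and the 24 h and 48 h arrays overlapped. In head fit read 11.53, 11.56, 11.54, 11.47 and 9.26 at 0 h, then 6.03, 5.19, 5.86, 2.75 and 3.99 at 24 h; the 48 h arrays read 5.13, 4.22, 2.80 and 2.41. In body it read 9.26, 9.92, 10.82, 10.02 and 6.78 at 0 h, then 6.55, 3.31, 5.98, 3.65 and 3.52 at 24 h; the 48 h arrays read 2.92, 3.28, 2.19 and 2.08. The fasted arrays again lay below all 0 h arrays, although in body the highest 24 h array (6.55) came close to the lowest 0 h array (6.78). The low 0 h arrays of fit in palps, heads and bodies were all from pool 9, the same pool whose antennae had the highest 0 h signal.

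The log2 difference of fit between 24 h and 0 h was -2.26 ± 0.43 in antennae, -5.24 ± 0.59 in palps, -6.31 ± 0.70 in heads and -4.76 ± 0.79 in bodies (± SE, limma; n = 5 and 4 in antennae, 5 and 5 elsewhere). In palp and in head it was the lowest 24 h difference of all features tested, 9031 in palp and 9083 in head. Between 48 h and 0 h, the difference of fit was -2.35 ± 0.43 in antennae (n = 5 and 4), -6.41 ± 0.62 in palps, -7.43 ± 0.75 in heads and -6.74 ± 0.83 in bodies (n = 4 and 5). Both comparisons use the same 0 h arrays. All 4 body arrays at 48 h were below 4, so the body level there was at least 41.1-fold lower than at 0 h. In head 2 of the 4 arrays at 48 h were also below 4. Between 48 h and 24 h, fit differed by -0.09 ± 0.40 in antennae, -1.17 ± 0.62 in palps, -1.13 ± 0.75 in heads and -1.98 ± 0.83 in bodies. The arrays of these 2 times overlapped except in body, where every 48 h array (at most 3.28) was just below every 24 h array (at least 3.31), with 2 of the 24 h arrays and none of the 48 h arrays reaching 4. The antennal value changed sign on leaving out a single array, with a range of -0.37 to 0.03. Without 0 h replicate 5 of body, fit differed there by -5.41 at 24 h and -7.39 at 48 h. Antennae also had the lowest 0 h mean of fit, but in the comparison of unfasted parts below, antenna and body did not differ beyond their spread.

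The storage protein gene Lsp2 was lower at 24 h than at 0 h and lower again at 48 h by the group means of each part. Whether its course differed from that of fit was not tested. In antenna the log2 signals of Lsp2 were 12.06, 11.67, 13.34 and 12.07 at 0 h, then 9.86, 8.74, 7.62, 4.56 and 5.53 at 24 h; the 48 h arrays read 4.15, 4.38, 4.34, 3.67 and 2.08. The 3 times did not overlap there. In palp they were 13.47, 13.03, 13.85, 14.21 and 12.92 at 0 h, then 11.24, 11.14, 12.19, 7.53 and 10.59 at 24 h; the 48 h arrays read 7.66, 8.22, 5.11 and 6.80. In head they were 14.19, 14.16, 14.69, 14.59 and 13.95 at 0 h, then 13.00, 12.91, 13.33, 9.60 and 12.30 at 24 h; the 48 h arrays read 10.39, 10.31, 7.77 and 7.78. Fasted arrays lay below the 0 h arrays in both, and 1 low array at 24 h overlapped the 48 h range. In body Lsp2 read 11.76, 12.41, 13.28, 12.74 and 10.44 at 0 h, then 10.52, 9.81, 11.21, 3.47 and 9.68 at 24 h; the 48 h arrays read 4.57, 8.66, 2.47 and 3.32. Here 0 h and 24 h overlapped, and 48 h did not reach the 0 h range.

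Between 48 h and 0 h, Lsp2 differed by -8.56 ± 0.91 in antenna, the lowest difference of the 8986 features tested in that part (n = 5 and 4). Only 3 of the 5 antennal arrays at 48 h reached 4, and 2 of 4 in body, so no fold is given. It differed by -6.55 ± 0.81 in palp, -5.26 ± 0.74 in head and -7.37 ± 1.52 in body (n = 4 and 5). At 24 h its difference from 0 h was -5.02 ± 0.91 in antennae, -2.96 ± 0.77 in palps, -2.09 ± 0.70 in heads and -3.19 ± 1.43 in bodies. The second day, 48 h against 24 h, gave -3.54 ± 0.86 in antennae, -3.59 ± 0.81 in palps, -3.17 ± 0.74 in heads and -4.18 ± 1.52 in bodies. In antenna and palp that second-day difference of Lsp2 was again the lowest of all features. The array of pool 7 at 24 h (replicate 4) weighed on these values: without it the 24 h difference of Lsp2 from 0 h was -4.35 in antennae, -2.21 in palps, -1.43 in heads and -1.82 in bodies, and the second-day difference was -4.21, -4.34, -3.82 and -5.55 in the same order. Without the antennal array of pool 4 at 24 h (replicate 1) the antennal differences of Lsp2 were -5.67 at 24 h and -2.89 on the second day. Without the 48 h array of pool 7 (replicate 3) those between 48 h and 0 h were -5.94 in palp and -6.61 in body, with second-day differences of -2.98 and -3.42. Without body 48 h replicate 2 they were -8.67 and -5.48. In head, where the 0 h signal was highest, every 48 h array still read at least 7.77.

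The alkaline phosphatase gene phu was lowest at 24 h and higher again at 48 h. Its log2 signals in antenna were 7.66, 6.58, 7.85 and 10.05 at 0 h, then 2.35, 2.64, 2.62, 2.82 and 2.45 at 24 h; the 48 h arrays read 2.83, 2.53, 6.15, 2.71 and 3.63. In palp phu read 11.23, 10.71, 11.18, 10.99 and 12.01 at 0 h, then 6.69, 2.52, 7.54, 6.95 and 7.08 at 24 h; the 48 h arrays read 8.65, 10.11, 8.41 and 9.98. The antennal signal stayed below 4 on all but 1 fasted array, whereas each palp array at 48 h was above each at 24 h. In head phu read 12.04, 12.23, 11.79, 11.25 and 12.31 at 0 h, then 7.11, 3.85, 7.95, 6.00 and 7.09 at 24 h; the 48 h arrays read 9.72, 10.89, 8.67 and 10.59. In body it read 9.39, 9.52, 9.82, 9.91 and 10.13 at 0 h, then 2.25, 2.11, 2.64, 2.15 and 2.12 at 24 h; the 48 h arrays read 5.30, 8.96, 2.79 and 7.76. In palp, head and body the 3 times did not overlap: 48 h lay between 24 h and 0 h.

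Against 0 h, phu at 24 h differed by -5.46 ± 0.73 in antennae, -5.07 ± 0.78 in palps, -5.52 ± 0.64 in heads and -7.50 ± 0.85 in bodies (n = 5 and 4 in antennae, 5 and 5 elsewhere). With all 24 h arrays dim, the level was at least 16.4-fold lower in antenna and at least 54-fold lower in body. At 48 h the difference of phu from 0 h was -4.47 ± 0.73 in antennae, -1.94 ± 0.83 in palps, -1.96 ± 0.68 in heads and -3.55 ± 0.90 in bodies. Between 48 h and 24 h its log2 signal differed by 1.00 ± 0.68 in antennae, 3.13 ± 0.83 in palps, 3.57 ± 0.68 in heads and 3.95 ± 0.90 in bodies, the last at least 4.6-fold. Single arrays moved several of these differences of phu by over 1.5-fold. Without antennal 0 h replicate 4 they were -4.79 at 24 h and -3.79 at 48 h, and without antennal 48 h replicate 3 the 48 h difference was -5.11 and that between 48 h and 24 h 0.35. Without 24 h replicate 2, phu at 24 h differed from 0 h by -4.16 in palp and -4.89 in head, and its second-day differences were 2.22 and 2.93. In body the 48 h difference was -4.47 without 48 h replicate 2 and -2.41 without 48 h replicate 3, with second-day differences of 3.03 and 5.09. In the fits with all arrays of head and of body, phu had the highest 48 h minus 24 h difference of all features, and in palp 1 feature lay above it. A count was made of features at least 4-fold lower at 24 h than at 0 h and then at least 4-fold higher at 48 h than at 24 h, a limit chosen after the values of phu were seen. It held phu alone in palps (of 53 features past the first limit), in heads (of 67) and in bodies (of 159), and 1 feature with no gene name in antennae (of 56).

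**Figure D2:**
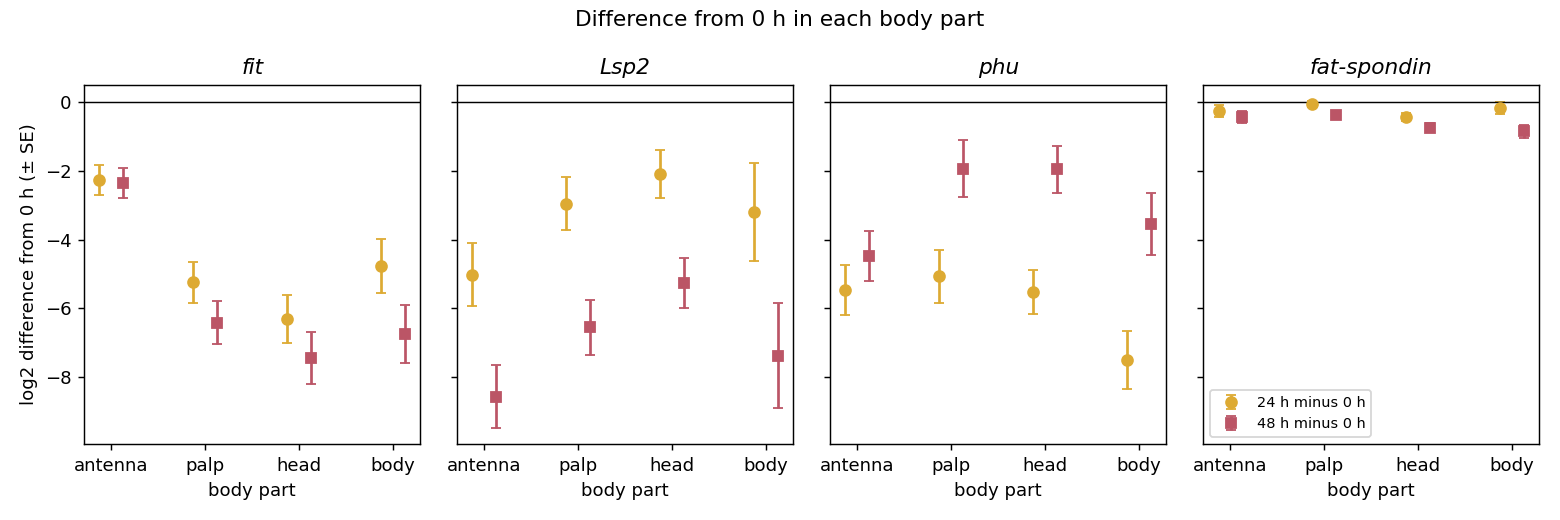
Log2 difference from 0 h (vertical axis, ± SE from limma) at 24 h (circles) and 48 h (squares) in each body part; both times use the same 0 h arrays. The 48 h squares lie below the 24 h circles for Lsp2 and above them for phu in all 4 parts, while fat-spondin stays within 1 log2 unit of 0.

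The secreted protein gene fat-spondin moved little. In antenna its log2 signal lay between 10.29 and 10.64 at 0 h, 9.75 and 10.40 at 24 h, and 9.44 and 10.30 at 48 h, with overlap at each step. In palp the ranges of fat-spondin were 11.23 to 11.55, 11.23 to 11.45 and 10.97 to 11.17 at 0, 24 and 48 h. In head the ranges were 12.02 to 12.61, 11.58 to 12.04 and 11.39 to 11.65 at 0, 24 and 48 h. In body they were 10.98 to 11.37, 10.67 to 11.35 and 9.89 to 10.80. The 48 h arrays of fat-spondin lay below all 0 h arrays in palps, heads and bodies, and the 24 h arrays overlapped 0 h in every part. The 48 h minus 0 h difference was -0.43 ± 0.17 in antennae, -0.37 ± 0.09 in palps, -0.75 ± 0.13 in heads and -0.85 ± 0.19 in bodies. At 24 h the largest difference of fat-spondin from 0 h was -0.44 ± 0.12, in head.

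At 24 h, the arrays of 3 of the 4 genes lay wholly below 0 h in antenna, palp and head, and those of 2 in body. The share of all features whose arrays did so was 5.36% in antennae, 9.06% in palps, 6.76% in heads and 9.47% in bodies. At 48 h the arrays of 3 genes lay wholly below 0 h in antenna and those of all 4 in palps, heads and bodies, where the shares of all features were 8.64%, 13.9%, 9.74% and 17.3% in that order of parts. Arrays wholly above those of 24 h at 48 h were found for phu in palps, heads and bodies, where 5.71%, 2.31% and 3.56% of all features had them. The genes were chosen for these differences, so nothing is read from the counts.

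The courses were similar without the arrays rich in yolk protein transcripts. Without them, the 48 h minus 0 h difference in head was -7.93 ± 0.77 for fit, -5.70 ± 0.78 for Lsp2, -1.87 ± 0.77 for phu and -0.79 ± 0.14 for fat-spondin. In body it was -6.85 ± 0.94 for fit, -7.31 ± 1.72 for Lsp2, -3.25 ± 0.99 for phu and -0.70 ± 0.19 for fat-spondin. In palp it was -6.46 ± 0.70 for fit, -6.79 ± 0.91 for Lsp2, -1.72 ± 0.93 for phu and -0.34 ± 0.10 for fat-spondin. Without the 5 set-aside arrays, the values that moved by over 1.5 times were those of Lsp2 in antenna, -5.88 ± 0.89 at 24 h and -2.89 ± 0.78 on the second day, and those of phu in palp, -4.29 ± 0.39 at 24 h and 2.22 ± 0.39 on the second day.

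Transcripts of other cells moved beside these genes. The mean log2 signal of 7 gut digestive enzymes in head ranged from 2.39 to 11.44 at 0 h, 8.23 to 10.41 at 24 h and 5.07 to 9.51 at 48 h. In body it ranged from 12.95 to 13.52 at 0 h, 10.54 to 11.29 at 24 h and 10.35 to 11.14 at 48 h. The mean of 10 hemocyte genes in head was 8.92 to 9.42 at 48 h, against 10.19 to 10.50 at 0 h, and in body 6.15 to 7.31 at 48 h, against 8.26 to 8.67 at 0 h. Of the hemocyte genes tested between 48 h and 0 h, 5 of 10 fell in antennae, 7 of 10 in palps, 8 of 10 in heads and 8 of 9 in bodies, and none rose, where 8.97%, 15.7%, 12.3% and 21.0% of all features fell. In body all 12 accessory gland genes fell (median -0.98, against 0.10 over all features), and 2 did in a single fit over all arrays. In head 2 of 5 brain neuron genes fell, among them the insulin-like peptide gene Ilp5 by 5.21 ± 0.44 on the log2 scale (limma, adjusted p = 3.34e-06), and 1 rose, a call lost without any of 5 single arrays (0 h replicate 2, 3 or 4, or 48 h replicate 3 or 4). The part of these cells in the differences above was not tested.

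The unfasted parts were compared to ask where the genes were expressed before food was withheld. The genes were picked for falls from these same 0 h arrays, so their 0 h levels are not independent of that choice. The tests below do not allow for it. In limma over 11203 features, all 4 genes were lower in antenna than in head at 0 h, where 22.5% of features were lower and 49.0% differed. The difference was -3.16 ± 0.70 for fit (adjusted p = 0.000993), -2.03 ± 0.46 for Lsp2 (adjusted p = 0.00118), -3.89 ± 0.47 for phu (adjusted p = 1.56e-06) and -1.87 ± 0.12 for fat-spondin (adjusted p = 3.46e-10). Every antennal array lay below every head array for each of the 4 genes, as for 19.4% of all features. All 4 were also lower in body than in head, where 54.5% of features were lower and 85.9% differed: -1.71 ± 0.66 for fit (adjusted p = 0.023), -2.19 ± 0.43 for Lsp2 (adjusted p = 0.000139), -2.17 ± 0.45 for phu (adjusted p = 0.000206) and -1.09 ± 0.11 for fat-spondin (adjusted p = 6.24e-08). The call for fit between body and head rested on few arrays: without body 0 h replicate 5 (pool 9) the difference was -1.07, with an adjusted p of 0.0755 in limma, and without the 5 set-aside arrays it was -1.59, with an adjusted p of 0.0599.

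Palp differed from head in fat-spondin alone of the 4, by -0.87 ± 0.11 (adjusted p = 3.32e-06), in a comparison where 53.9% of features differed and 23.2% were lower. For fit the 0 h difference between palp and head was 0.03 ± 0.66, for Lsp2 -0.82 ± 0.43 (adjusted p = 0.126) and for phu -0.70 ± 0.45 (adjusted p = 0.21). With the pool as a fixed replicate block in limma, Lsp2 passed between palp and head (adjusted p = 0.0234). With the pool as a random replicate block it did not (-0.82 ± 0.38). All 4 genes were lower in antenna than in palp, as were 20.6% of all features. Of the 4, 3 were lower in body than in palp (60.0% of features were) and 2 were higher in body than in antenna (30.6% were). The call of fit between body and palp was lost without body 0 h replicate 5 (adjusted p = 0.0692) and without the 5 set-aside arrays (adjusted p = 0.0519). A single limma fit over all arrays lost those of Lsp2 (adjusted p = 0.216) and phu (adjusted p = 0.0802) between body and palp and that of phu between body and antenna (adjusted p = 0.0532). The 0 h levels of fit ordered palp, head, body, antenna from high to low, with means of 11.10, 11.07, 9.36 and 7.91, and body and antenna did not differ beyond their spread (adjusted p = 0.0619). Without body 0 h replicate 5, that difference of fit passed at 2.09 (adjusted p = 0.00253). Those of Lsp2 ordered head, palp, antenna, body, with means of 14.32, 13.50, 12.29 and 12.12, and antenna and body did not differ beyond their spread (adjusted p = 0.753). The step of Lsp2 between antenna and palp (-1.21 ± 0.46, adjusted p = 0.041) missed the threshold in 6 of the 19 fits that left out 1 array.

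Those of phu ordered head, palp, body, antenna, with means of 11.92, 11.23, 9.75 and 8.04. Body was lower than palp (-1.47 ± 0.45, adjusted p = 0.00538) and higher than antenna (1.72 ± 0.47, adjusted p = 0.0026). Those of fat-spondin kept the order head, palp, body, antenna, with means of 12.28, 11.41, 11.19 and 10.42. Body and palp did not differ beyond their spread (-0.22 ± 0.11, adjusted p = 0.0869), and body was higher than antenna (0.77 ± 0.12, adjusted p = 1.07e-05). The dissected head, from which antennae and mouthparts had been removed, therefore had the highest mean of 3 of the genes and a mean of fit within its error of palp.

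Each pool of flies was cut into all its parts, so an array can be set against the array of the same pool and time in another part. Deviations from the group mean were correlated over such pairs for each gene and pair of parts, 24 relations in all, with permutation tests and Benjamini-Hochberg adjustment over the 24. These deviations were not used to choose the genes. For Lsp2, flies low in one part were low in the others. Its deviations in palp and head had a Pearson r of 0.93 (permutation p = 1e-05, the smallest the permutations could give, adjusted p = 0.00012) and a Spearman rho of 0.92 (permutation p = 2e-05) over 14 pairs of arrays. For Lsp2 in body and palp r was 0.92 (permutation p = 1e-05, adjusted p = 0.00012) and rho 0.84 (permutation p = 0.00023). In body and head r was 0.90 (permutation p = 2e-05, adjusted p = 0.00016) and rho 0.82 (permutation p = 0.00063).

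The median r of all features was 0.44 for palp and head, 0.10 for body and palp and 0.02 for body and head. With antenna it was 0.29 for palp, 0.19 for head and 0.06 for body, and for antenna and palp 89.5% of features lay below the r of Lsp2. Without the 2 arrays farthest from the median on the x axis, r for Lsp2 was 0.81, 0.84 and 0.79 in those pairs of parts, with adjusted permutation p values of 0.016, 0.011 and 0.019. With antenna, Lsp2 had r of 0.73 against head (adjusted permutation p = 0.013, rho 0.69), 0.65 against palp (adjusted permutation p = 0.042, rho 0.65) and 0.64 against body (adjusted permutation p = 0.042, rho 0.60), and these rested on the 2 farthest arrays, without which r was 0.58, 0.42 and 0.46. The same 6 pools recur at several times, so the arrays of a pool are not independent and these p values treat them as if they were.

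**Figure D3:**
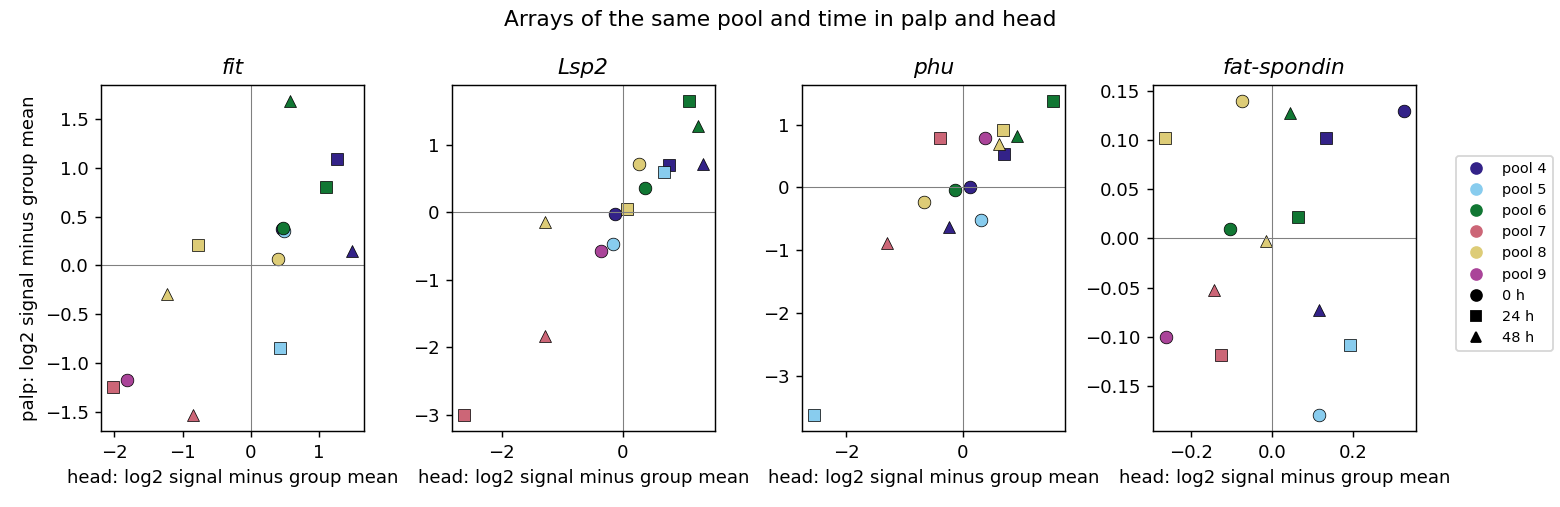
Deviation of each array from its group mean (log2 signal) in palp (vertical axis) against head (horizontal axis) for arrays of the same pool and time; colours are pools and shapes are fasting times. Lsp2 lies along a line (r = 0.93), phu does so with the 24 h array of pool 5 far below the rest (r = 0.89), and fat-spondin shows no line (r = 0.11).

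In single arrays, pool 7 had the lowest 24 h signal of Lsp2 in all 4 parts: 4.56 in antennae, 7.53 in palps, 9.60 in heads and 3.47 in bodies. For fit, deviations in palp and head had r of 0.72 (permutation p = 0.0039, adjusted p = 0.013, rho 0.78), and r was 0.78 without the 2 farthest arrays (adjusted permutation p = 0.023). In body and head fit had r of 0.76 (adjusted permutation p = 0.0077, rho 0.72) and in body and palp 0.74 (adjusted permutation p = 0.010, rho 0.74). Those relations of fit missed the threshold without the 2 farthest arrays, at r of 0.64 and 0.65 (adjusted permutation p = 0.087 and 0.084). Antenna stood apart for fit, with r of -0.21 against head, -0.30 against palp and -0.48 against body, none past the threshold.

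For phu, palp and head had r of 0.89 (permutation p = 5e-05, adjusted p = 3e-04, rho 0.79), which was 0.69 without the 2 farthest arrays (adjusted permutation p = 0.067). In body and antenna phu had r of 0.66 (adjusted permutation p = 0.042, rho 0.74), which was 0.39 without them. At 48 h the highest phu signal of all 4 parts was from pool 6, with 6.15 in antennae, 10.11 in palps, 10.89 in heads and 8.96 in bodies. At 0 h the highest was from pool 9 in all 4 parts, with 10.05 in antennae, 12.01 in palps, 12.31 in heads and 10.13 in bodies. No pair of parts passed for fat-spondin. In total 11 of the 24 relations passed, and 4 without the 2 farthest arrays. The share of all features that would pass was not counted, so nothing is read from that count. Of all features, 89.1% lay below the r of fit in palp and head, 99.3% in body and head and 99.1% in body and palp. For phu 99.7% lay below its r in palp and head and 98.5% in body and antenna.

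Deviations of 1 gene against another within a part gave 40 relations, those with the mean of the yolk protein genes Yp1, Yp2 and Yp3 included. Here too the pools recur at several times, and the p values treat the arrays of a pool as independent. The r over pairs of other features was not computed, so no background stands beside these values. The relation of fit and Lsp2 passed in head, with r of 0.85 (permutation p = 5e-05, adjusted p = 0.002) and rho of 0.86 (permutation p = 0.00013) over 14 arrays, and r of 0.85 without the 2 farthest arrays (adjusted permutation p = 0.022). In palp fit and Lsp2 had r of 0.76 (permutation p = 0.0011, adjusted p = 0.021) and rho of 0.68 (permutation p = 0.0081), which rested on the 2 farthest arrays (r of 0.66, adjusted permutation p = 0.16). In body r of fit and Lsp2 was 0.56 (adjusted permutation p = 0.22) and in antenna -0.02. No relation of phu with fit or Lsp2 passed, and none of the 4 genes with the yolk protein mean. In body Yp1 read 2.08 to 2.70 except on the 48 h array of pool 4, which read 13.26. The relations with the yolk protein mean in body thus rested largely on that array and cannot decide. In palp and head the 48 h array of pool 4 also had the highest Yp1 signal, 11.44 and 12.69.

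Over the 12 group means, the genes most like each one were ranked by Pearson r among 10092 genes, as a description. The 12 points share arrays and were in part the values by which the genes were chosen. CG9928 (r = 0.93), Jabba (0.92), CG6310 (0.91), CG5707 (0.91) and Erasp (0.90) were nearest to fit. Jabba encodes a lipid droplet protein, and in head its mean log2 signal was 11.92 ± 0.45 at 0 h, 8.78 ± 0.40 at 24 h and 7.83 ± 0.27 at 48 h (SD, n = 5, 5 and 4). Nearest to Lsp2 were PPO1 (r = 0.95), a prophenoloxidase gene of the hexamerin superfamily, CG10863 (0.93), the esterase gene alpha-Est2 (0.91), CG14400 (0.89) and CCHa2 (0.89), which encodes a nutrient-responsive peptide hormone. Nearest to fat-spondin were the flavin monooxygenase gene Fmo-1 (r = 0.97), the protease gene teq (0.97), the serpin gene Spn43Ab (0.97), CG2145 (0.96) and DhpD (0.94).

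The sugar-responsive transcription factor gene sug (r = 0.90), CG13607 (0.87), Pisd (0.86), Art1 (0.83) and CG31810 (0.83) were nearest to phu. How far their likeness to phu came from the fasting times or from differences between parts was not tested. In head sug had a mean log2 signal of 10.29 ± 0.54 at 0 h, 7.10 ± 0.72 at 24 h and 7.66 ± 0.58 at 48 h (SD, n = 5, 5 and 4), and in palp 9.82 ± 0.71, 7.08 ± 0.92 and 7.39 ± 0.50. In body sug read 6.66, 4.33, 6.33, 5.97 and 6.08 at 24 h, and its 48 h arrays read 3.78, 9.18, 6.30 and 8.77, against a mean of 9.99 at 0 h. The high body arrays of sug at 48 h were those of pools 6 and 8, which also had the highest phu signals of that group, 8.96 and 7.76. Pools 4 and 7 were ordered in opposite ways, with 3.78 and 6.30 for sug and 5.30 and 2.79 for phu. CG13607 in head had 10.20 ± 0.50 at 0 h, 6.62 ± 0.35 at 24 h and 6.40 ± 0.46 at 48 h.

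**Figure D4:**
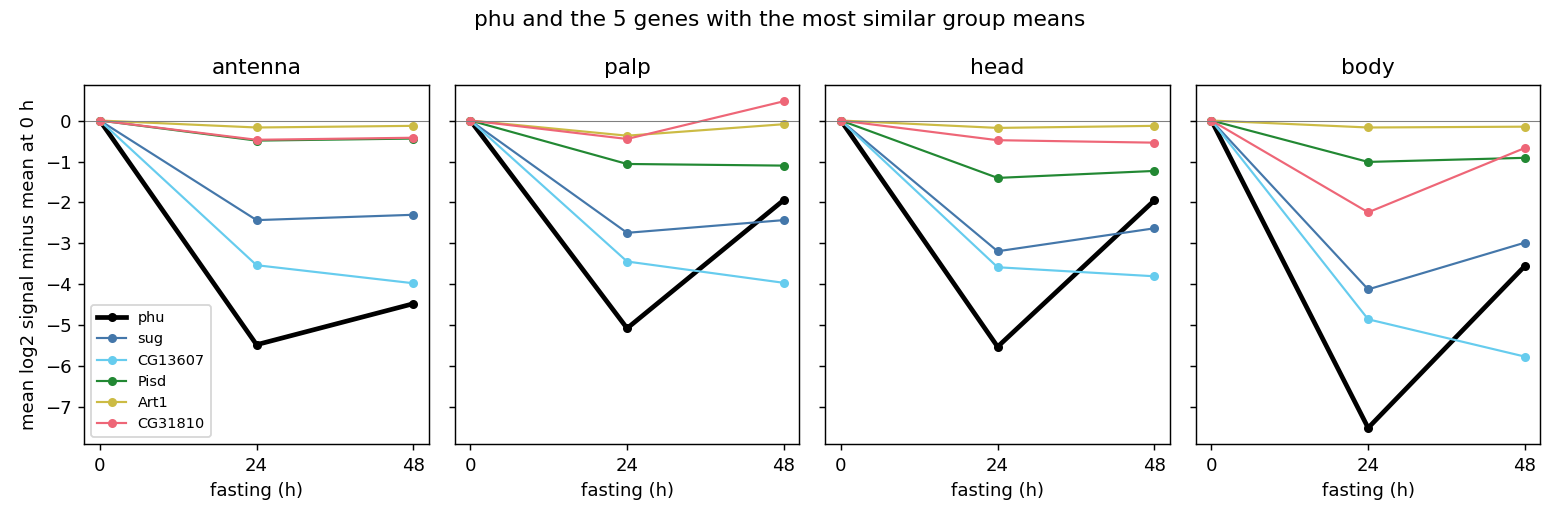
Mean log2 signal minus the mean at 0 h (vertical axis) against hours of fasting for phu (thick black line) and the 5 genes with the most similar group means, in each body part. In palp, head and body phu is higher at 48 h than at 24 h. The mean of sug is also higher at 48 h in these parts (in body 7.01, against 5.87 at 24 h), and CG13607 is no higher at 48 h in any part.

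Other fat body genes were taken as lists and tested between 48 h and 0 h with limma, where 8.97% of all features fell in antennae, 15.7% in palps, 12.3% in heads and 21.0% in bodies, and 8.61%, 17.4%, 13.2% and 29.8% rose. Of 10 storage and lipid genes tested, 5 fell and 3 rose in antennae (median -0.35, against 0.04 over all features), 5 fell and 2 rose in palps (median -0.25, against 0.02), 5 fell and 3 rose in heads (median -0.47, against 0.08), and 6 fell and 2 rose in bodies (median -0.60, against 0.10). Without antenna 0 h replicate 4, only 1 of the 10 rose in antenna. AkhR, the receptor of adipokinetic hormone, fell by 4.15 ± 0.55 on the log2 scale in antennae (adjusted p = 0.000283), and its 48 h difference was -1.54 ± 0.15 in palps (adjusted p = 8.84e-06), -2.20 ± 0.12 in heads (adjusted p = 6.08e-08) and -2.30 ± 0.23 in bodies (adjusted p = 1.39e-05). Lsd-1, a perilipin of lipid droplets, fell in all 4 parts, most in head (-4.23 ± 0.39, adjusted p = 7.13e-06). The lipase gene bmm rose in all 4, most in head (1.87 ± 0.11, adjusted p = 9.27e-08), and Lpin, which encodes the phosphatidate phosphatase lipin, rose in all 4, most in palp (1.06 ± 0.12, adjusted p = 3.37e-05). The call for Lpin in antenna (0.50 ± 0.13, adjusted p = 0.0204) was lost with array weights and without antenna 0 h replicate 4. The lipoprotein gene apolpp fell in all 4 parts, by 1.87 ± 0.24 in antenna (adjusted p = 0.000233) and by 0.43 ± 0.10 in head (adjusted p = 0.00923).

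Among fat body hormone genes CCHa2 fell in every part, by 1.39 ± 0.18 in antennae (adjusted p = 0.000219), 2.67 ± 0.16 in palps (adjusted p = 1.12e-07), 2.29 ± 0.16 in heads (adjusted p = 5.21e-07) and 1.99 ± 0.23 in bodies (adjusted p = 3.35e-05). The whole list counted 3 lower and 0 higher of 8 in antennae (median -0.50), 3 and 1 of 8 in palps (median -0.40), 2 and 1 of 8 in heads (median -0.16) and 2 and 0 of 7 in bodies (median -0.44). The palp gene that rose was lost on leaving out a single 0 h array (replicate 1, 2, 3 or 5) or a single 48 h array (replicate 1 or 4). In head 1 gene fell on leaving out a single 0 h array (replicate 1, 3 or 4) or a single 48 h array (replicate 2, 3 or 4), 2 rose without 24 h replicate 2, and with the pool as a replicate block 3 fell and 2 rose. ImpL2, which encodes a secreted protein that binds insulin-like peptides, fell by 2.26 ± 0.23 in antenna (adjusted p = 3.5e-05) and rose by 0.83 ± 0.20 in head (adjusted p = 0.00984).

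The list of sex-regulated genes of the head fat body held Obp99b, Cyp4d21, sxe2 and the yolk protein genes. Obp99b, an odorant-binding protein gene, fell by 6.78 ± 0.41 in antennae (adjusted p = 6.26e-07), 2.85 ± 0.30 in palps (adjusted p = 1.62e-05), 7.46 ± 0.70 in heads (adjusted p = 8.19e-06) and 7.72 ± 0.83 in bodies (adjusted p = 2.33e-05). The cytochrome P450 gene Cyp4d21 and the lipase-like gene sxe2 also fell in all 4 parts, so that 3 of 5 genes tested fell in antenna, palp and head and 3 of 3 in body, and none rose. The list medians were -0.64, -0.60, -1.67 and -3.48 in antenna, palp, head and body. A single fit over all arrays left 1 of these calls in palp and lost that of sxe2 in antenna (adjusted p = 0.107). With the pool as a replicate block 1 gene of the list rose in head. Of the hexamerin and phenoloxidase list, PPO1 and PPO2 were tested and both fell in all 4 parts, PPO1 by 3.05 ± 0.40 in antenna (adjusted p = 0.000271) and by 4.11 ± 0.69 in body (adjusted p = 0.000499). The call of PPO2 in head was lost in the single fit over all arrays (adjusted p = 0.0875). Both are also hemocyte genes.

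**Figure D5:**
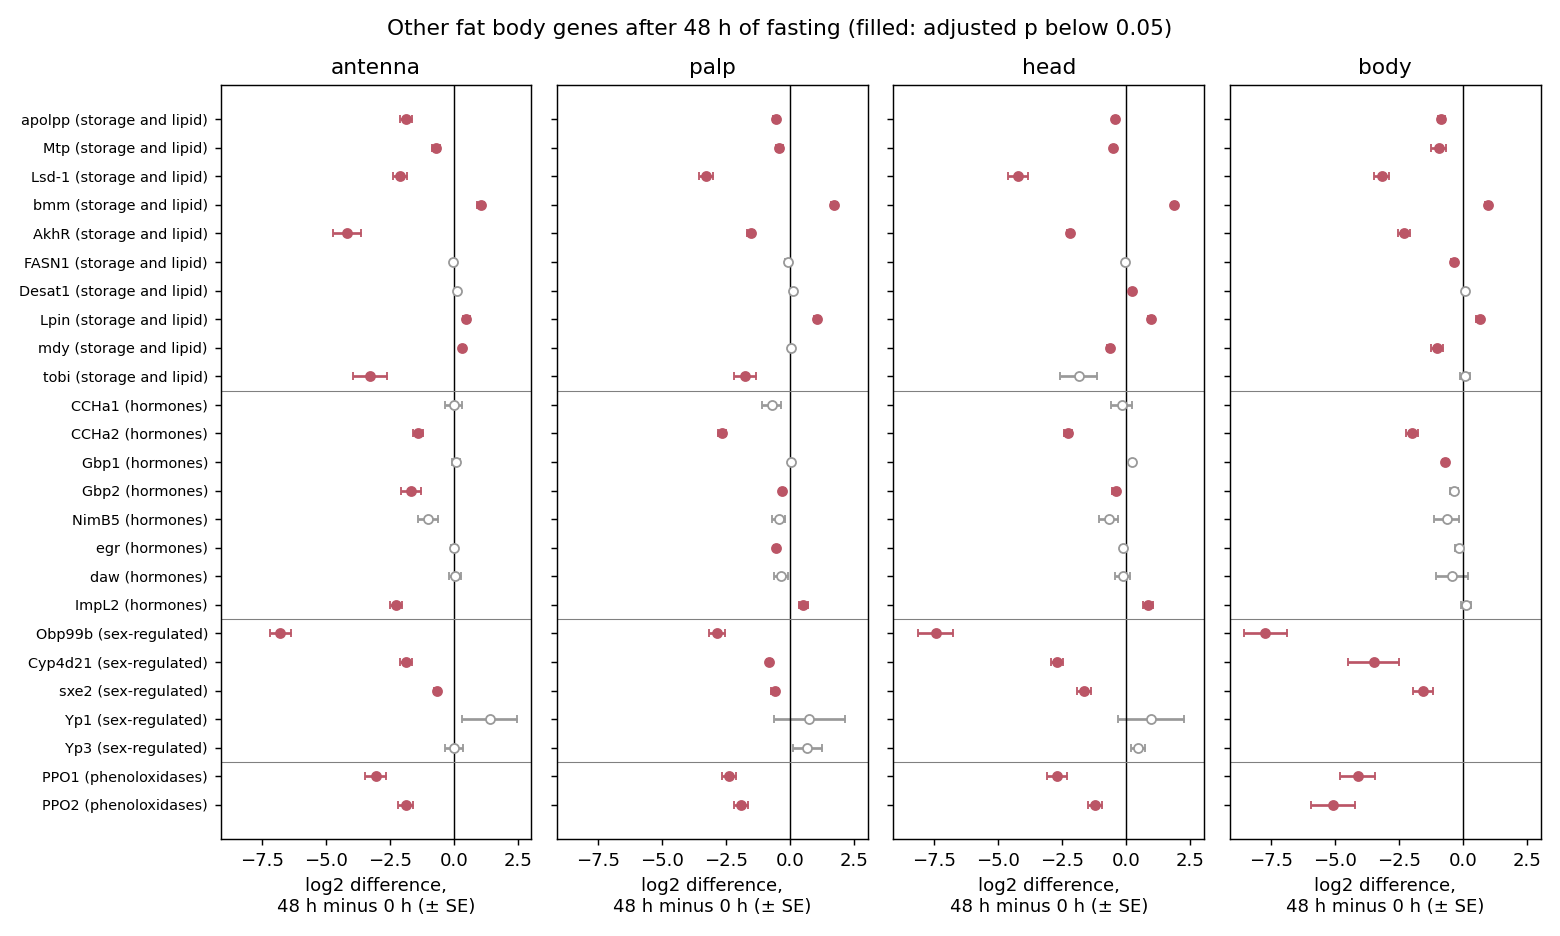
Log2 difference between 48 h and 0 h (horizontal axis, ± SE from limma) of listed fat body genes in each body part; filled points passed an adjusted p of 0.05 and a missing point was not tested. Lsd-1, AkhR, CCHa2, Obp99b, PPO1 and PPO2 lie left of 0 in all 4 parts, and bmm lies right of it.

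As `to` was not analysed here, only its family was read, which cannot show how `to` itself changed. Of the takeout family genes tested between 48 h and 0 h, 4 fell and 4 rose of 17 in antennae (median -0.19), 12 fell and 1 rose of 17 in palps (median -0.40), 10 fell and 2 rose of 17 in heads (median -0.96), and 9 fell and 0 rose of 15 in bodies (median -0.59). Over all features 8.97%, 15.7%, 12.3% and 21.0% fell in that order of parts, and 8.61%, 17.4%, 13.2% and 29.8% rose. The medians of all features were 0.04, 0.02, 0.08 and 0.10. In a single fit over all arrays 0 fell in antenna and 6 in palp, and with the pool as a replicate block 4 rose in head. CG11854, which lies next to `to` in the RefSeq gene order, had log2 signals of 9.54, 9.97, 6.93, 10.03 and 8.13 in head at 0 h. At 24 h the signals of CG11854 in head were 3.47, 5.70, 2.74, 4.65 and 4.86, and at 48 h 4.05, 2.52, 4.85 and 3.82. It fell in head by 5.11 ± 0.73 at 48 h (adjusted p = 0.00022), in palp by 1.69 ± 0.27 (adjusted p = 0.000398) and in antenna by 1.15 ± 0.21 (adjusted p = 0.00301), and was dim on most body arrays. The antennal call of CG11854 was lost in the single fit (adjusted p = 0.196). Jhbp7, on the other side of `to`, rose in head by 1.68 ± 0.44 (adjusted p = 0.0138) and in antenna by 1.06 ± 0.21 (adjusted p = 0.0048). The family gene dyw rose in antenna by 3.84 ± 0.69 (adjusted p = 0.00235), in palp by 4.36 ± 0.27 (adjusted p = 1.83e-07) and in head by 2.16 ± 0.37 (adjusted p = 0.00101).

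Of the 12 other alkaline phosphatase genes, Alp4 and Alp12 reached 4 on every antennal, palp and head array, and 7 to 10 genes were below 4 on all arrays of a group in these parts. Of those tested between 48 h and 0 h, 1 of 2 fell in antennae, 2 of 3 in palps (where 1 rose), 1 of 3 in heads and 7 of 9 in bodies (median -2.15, against 0.10 over all features). The shares of all features that fell were 8.97%, 15.7%, 12.3% and 21.0% in that order of parts, and 17.4% rose in palps. In palp 1 fell with the pool as a replicate block and on leaving out a single array (replicate 2, 3 or 5 of 0 h, 3 or 4 of 24 h, or 1, 3 or 4 of 48 h). In body 1 also rose with the pool as a replicate block and without 24 h replicate 1, 24 h replicate 3 or 48 h replicate 3. In body Alp6 fell by 4.96 ± 0.49 (adjusted p = 1.24e-05), Alp9 by 4.78 ± 0.63 (adjusted p = 8.24e-05) and Alp10 by 3.25 ± 0.92 (adjusted p = 0.0125). At 24 h in body, where 12.0% of all features fell, Alp9 fell by 5.82 ± 0.59 (adjusted p = 4.24e-05) and Alp10 by 4.89 ± 0.87 (adjusted p = 0.00169). The body means of Alp9 were 8.85 at 0 h, 3.03 at 24 h and 4.07 at 48 h, and those of Alp10 were 9.82, 4.93 and 6.57. Whether the second-day difference of phu in body exceeds theirs was not tested.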

How the data were processed

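The deposited values are log2 signals that the authors made with GCRMA, per the submitters' processing notes; no version of it is given there. Per the labels' protocols, total RNA was purified with Qiagen RNeasy, amplified with the NuGEN Ovation V2 system and labelled with biotin. Sorted values differed by at most 0.326 between arrays, so arrays of all parts shared a scale close to quantile scaling, and a change in total RNA cannot be read. The number of arrays limits precision.

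Controls (183 probe sets) were left out. Each gene was read from its single-gene probe set of highest mean, giving 17104 features with those lacking 1 gene (402 with several genes, 4720 with none). Within a part a feature was tested when it reached 4 on at least 4 arrays. Differences came from limma 3.58.1 in R 4.3.3, a fit of 3 group means per part, and a fit of 4 group means at 0 h, two-sided, and p-values were adjusted by Benjamini-Hochberg over all features of a comparison, with a threshold of 0.05. Correlations used 100000 permutations. The scripts were tested on simulated data. Figures used matplotlib 3.10.9.

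The genes, lists and limits were chosen with earlier results of these data known. The text names all 5 genes, the 5 genes most like each, the sex-regulated and hexamerin lists, and up to 4 genes of each other list with the largest 48 h differences among those called in a part. Genes named under the list rule in 1 part are also given in others. CG11854 and Jhbp7 were given for their place beside `to`, and single arrays and pools were picked out with their values known. The planned mean of roX1 and roX2 was not analysed here.

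The labels give each sample's pool, and the design text says that each pool was sampled at every time and each sample separated into body parts. The arrays pair by pool only in part. Pool 9 had 0 h arrays alone, and pool 7 had arrays at 24 and 48 h but none at 0 h. Pool 5 had no 48 h array in palp, head or body, and pool 6 no 0 h array in antenna. Differences between times therefore compare partly different pools. Residuals of same-pool arrays correlated at a mean r of 0.12, 0.13, 0.20 and 0.11 in antenna, palp, head and body, against -0.02, -0.03, -0.04 and -0.02 for different pools, and 0.22 against -0.05 across parts at 0 h. The main fits had no block. A p value of limma measures the spread between the arrays of a group. These come from different pools, so differences between pools and between arrays are held together in it. A body array at 48 h whose title and source name disagreed was named by its title.

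Alternatives were no filter, every probe set, a repeated quantile scaling, the pool as a replicate block, fixed or random, a single fit over all arrays, array weights, leaving out the 5 set-aside arrays, and leaving out each array.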

Additional observations from a re-analysis of the deposited data

Results flagged for a closer look

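An array whose gap to its neighbour was large for the range of its group was found in 6 of the 48 groups of the 4 genes, where chance gives about 1 in 20. For fit, the 0 h arrays of pool 9 (replicate 5) read 9.92 in palp, against 11.16 to 11.48 on the others, and 9.26 in head, against 11.47 to 11.56. For Lsp2, the 24 h arrays of pool 7 (replicate 4) read 9.60 in head, against 12.30 to 13.33 on the others, and 3.47 in body, against 9.68 to 11.21. For phu, the 24 h palp array of pool 5 (replicate 2), one of the 5 set-aside arrays, read 2.52, against 6.69 to 7.54. The 24 h body array of pool 6 (replicate 3) read 2.64 for phu, against 2.11 to 2.25, all below 4. The cause was not tested.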

How the results depend on the processing

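The differences of the 4 genes from 0 h kept their direction in all 704 alternative values. For 48 h minus 24 h, an addition chosen after seeing the data, 348 values did and 4 did not: the antennal difference of fit (-0.09) ranged from -0.37 to 0.03 leaving out 1 array, above 0 without 24 h replicate 2, 3 or 6 or 48 h replicate 6. The number of features called varied. Between 24 h and 0 h in antenna it was 515, but 335 with no filter, 273 with the pool as a fixed replicate block and 1101 with array weights, and 278 to 753 leaving out 1 array. In that comparison leaving out 24 h replicate 2 gave 278, 24 h replicate 6 gave 287 and 0 h replicate 4 gave 283. In head it was 1564 at 24 h, but 3987 with a fixed and 3700 with a random replicate block and 2832 with array weights, and 1070 to 2657 leaving out 1 array (2657 without 0 h replicate 5). In head at 48 h it was 2318, but 4524 with a fixed and 4321 with a random replicate block and 4550 with array weights. In body at 24 h it was 1977, but 3121 in a single fit and 3804 with array weights, and 1361 to 3172 leaving out 1 array (3172 without 24 h replicate 1). In antenna at 48 h, 1580 features became 1029 to 1807 (1029 without 0 h replicate 4).

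At 0 h, the single fit over all arrays lost the calls of Lsp2 for antenna minus head (-2.03, adjusted p = 0.131), antenna minus palp (-1.21, 0.439) and body minus palp (-1.37, 0.216), and of phu for body minus antenna (1.72, 0.0532) and body minus palp (-1.47, 0.0802). Without the 5 set-aside arrays, fit lost body minus head (-1.59, 0.0599) and body minus palp (-1.65, 0.0519), and Lsp2 lost antenna minus palp (-1.13, 0.126), as it did with no filter (-1.21, 0.0734). Lsp2 gained palp minus head with the pool as a fixed replicate block (-0.82, 0.0234) and with array weights (-0.87, 0.0311), which also gave fit a call for body minus antenna (1.66, 0.0182). The replicate block changed no other 0 h call of the 4 genes.

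Leaving out 1 array, fit ranged from -2.16 to -1.07 for body minus head and from -2.10 to -1.09 for body minus palp, both lost without body replicate 5 (0.0755 and 0.0692), and from 1.08 to 2.09 for body minus antenna, which passed without antenna replicate 4 (0.0339), head replicate 5 (0.0425) or body replicate 5 (0.00253). Lsp2 ranged from -1.57 to -1.01 for antenna minus palp, lost without antenna replicate 1, 2 or 4 or palp replicate 1, 3 or 4 (0.061 to 0.129). For palp minus head Lsp2 ranged from -1.0 to -0.68, passing without body replicate 5 (0.0489), and phu from -0.90 to -0.57, passing without antenna replicate 4 (0.0413). Of the relations between parts 11 passed, but 4 without the 2 farthest arrays. The cause of these changes was not tested. Signals below 4 limit how low fit, phu and Lsp2 can be read.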
